A study of Macaca mulatta with 43 samples.

Results

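MYH11, MYL9 and CNN1 encode proteins of the contractile apparatus that marks smooth muscle cells, and they were followed here in the medial prefrontal cortex (PFC) of 43 male rhesus macaques. Every probeset (a set of probes against the same transcript) that the array's probe table gives to only 1 of these 3 gene symbols was taken. This gave 6 of the 52865 probesets on the array, of which 4 measure MYH11, 1 measures MYL9 and 1 measures CNN1. All 6 passed the filter on low values that left 24151 annotated probesets of 13705 genes for testing. The 3 genes were chosen by values of the same data: earlier results had shown them to vary together across animals, and MYH11 to fall with intake among the drinkers. Their co-variation is therefore described below with no test.

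The animals were adults of 5 to 11 years, housed individually and perfused at necropsy. RNA from Brodmann areas 24, 25 and 32 was pooled within each animal, and each animal had 1 array. The 32 ethanol-drinking animals had open access to 4% (w/v) ethanol for 22 h per day over 1 year, while the 11 controls were given a maltose dextrin solution with matched calories and no ethanol. Cohort 4 held 11 drinkers and no controls, cohort 5 held 8 drinkers and 5 controls, cohort 7a held 8 drinkers and 4 controls, and cohort 7b held 5 drinkers and 2 controls. RNA came from RNeasy kits in cohorts 4 and 5 and from AllPrep kits in cohorts 7a and 7b, so kit and these pairs of cohorts cannot be told apart. Ethanol intake was self-determined and differed between drinkers, and it is not analysed here. Animals are named below by cohort and by the running number that their labels give.

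Smooth muscle cells wrap the arteries and arterioles of the brain and set their diameter. Contraction runs through a myosin motor, in which the heavy chain MYH11 pulls on actin filaments and the regulatory light chain MYL9 switches the motor on when it is phosphorylated. CNN1 (calponin) binds the thin filament and restrains the motor. Pericytes, which sit on capillaries, carry little of this machinery, and in a block of cortex all of these cells are few beside neurons and glia. In bulk tissue, fewer cells of a type and less RNA per cell cannot be told apart.

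MYH11 was the most variable of the 3 genes. Its brightest probeset, MmugDNA.33337.1.S1_s_at, had an SD of 0.73 over the 43 arrays, larger than that of 97.5% of the tested probesets. All values are RMA values, which are on the log2 scale, so that a difference of 1 is a 2-fold difference, and levels of different probesets are not compared. In cohort 4 the drinkers ran from 6.97 to 9.90 with a median of 7.77. In cohort 5 the 5 controls lay at 7.44, 7.11, 7.55, 7.35 and 7.53, while the 8 drinkers ran from 7.00 to 9.61 with a median of 7.27. The highest values of these cohorts were those of drinkers. In cohort 5 the second highest drinker was at 7.63, close to its controls, while in cohort 4 the next drinkers below the highest were at 8.81, 8.39 and 8.30.

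In cohort 7a the 4 controls had MYH11 values of 6.93, 6.74, 6.54 and 7.34, and the 8 drinkers ran from 6.78 to 7.75 with a median of 7.20. In cohort 7b the controls were at 7.11 and 7.71, and the 5 drinkers at 9.28, 7.27, 7.07, 6.79 and 7.62. Drinkers and controls overlapped in each cohort that held both. Ordered by group mean, MYH11 ran from the drinkers of cohort 4 (7.98 ± 0.84 SD, n = 11) through those of cohorts 7b (7.61 ± 0.98, n = 5) and 5 (7.54 ± 0.86, n = 8) to the controls of cohorts 7b (7.41 ± 0.43, n = 2) and 5 (7.40 ± 0.18, n = 5). The drinkers of cohort 7a (7.19 ± 0.31, n = 8) and the controls of cohort 7a (6.89 ± 0.34, n = 4) stood last. No neighbours in this order differed by more than the larger of their SDs.

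A single drinker stood far above the rest in each of 3 cohorts: animal 5 in cohort 4 (9.90), animal 20 in cohort 5 (9.61) and animal 39 in cohort 7b (9.28). Against the median of the other drinkers of its cohort, animal 5 was 4.42-fold higher, animal 20 5.21-fold and animal 39 4.31-fold. The highest control was at 7.71 and the highest animal of cohort 7a at 7.75.

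**Figure D1:**
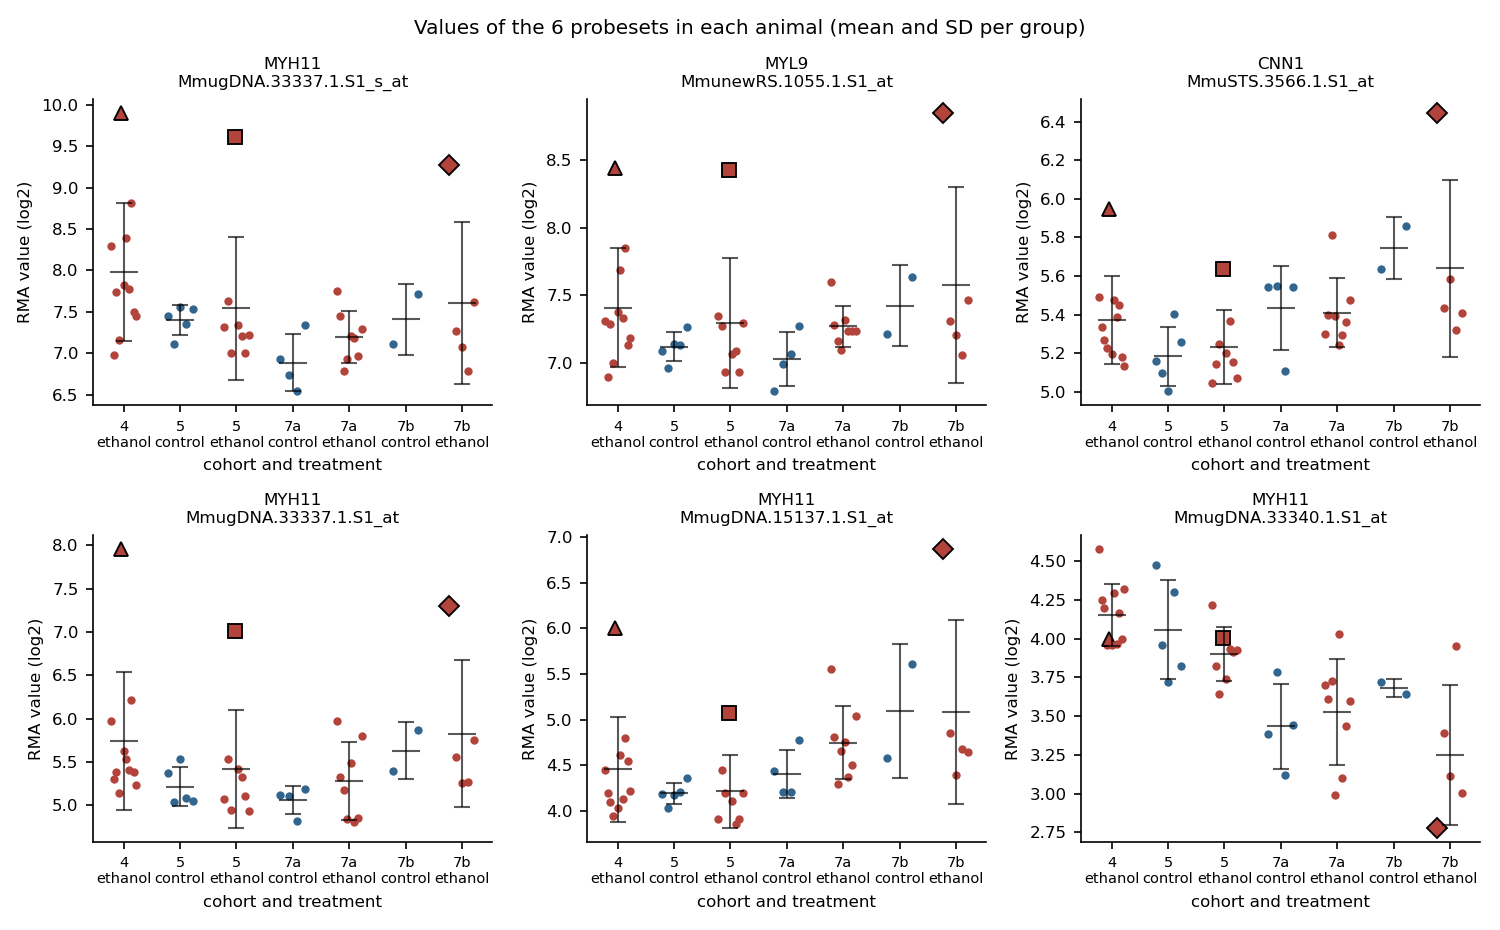
RMA values (log2) of the 6 probesets in each of the 43 animals, by cohort and treatment, with drinkers in red, controls in blue, and the mean and SD of each group as lines. The triangle, square and diamond mark animals 5, 20 and 39, which lie at 9.90, 9.61 and 9.28 in the first MYH11 panel and are the highest of their groups in every panel but that of MmugDNA.33340.1.S1_at.

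MYL9 singled out the same animals. Its only probeset, MmunewRS.1055.1.S1_at, gave 8.44 in animal 5, 8.43 in animal 20 and 8.85 in animal 39. The other drinkers ran from 6.90 to 7.85 in cohort 4, from 6.93 to 7.35 in cohort 5 and from 7.06 to 7.47 in cohort 7b. Cohort 5 controls were at 7.09, 6.96, 7.14, 7.13 and 7.26. In cohort 7a the controls were at 6.79, 6.99, 7.07 and 7.27 and the drinkers ran from 7.09 to 7.60 with a median of 7.24, and the 2 controls of cohort 7b were at 7.21 and 7.64. The 3 animals were thus 2.21-fold, 2.53-fold and 3.01-fold above the median of the other drinkers of their cohorts, a smaller excess than that of MYH11 in each of them, while all other drinkers and all controls lay at or under 7.85.

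CNN1 varied less, with an SD of 0.27 over the 43 arrays. Animal 39 (6.45) and animal 5 (5.95) were again the highest of all arrays, but animal 20 (5.64) lay below a control of cohort 7b (5.86) and a drinker of cohort 7a (5.81). In cohort 5 the controls were at 5.16, 5.10, 5.00, 5.40 and 5.26 and the drinkers ran from 5.05 to 5.64 with a median of 5.18. Cohort 7a controls were at 5.54, 5.55, 5.11 and 5.54, and its drinkers ran from 5.24 to 5.81 with a median of 5.38. In cohort 7b the controls were at 5.63 and 5.86, above all drinkers of that cohort but animal 39, since the other 4 ran from 5.32 to 5.59. The drinkers of cohort 4 ran from 5.13 to 5.95 with a median of 5.34.

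The 4 MYH11 probesets did not all measure the same thing. MmugDNA.33337.1.S1_at gave 7.96 in animal 5, 7.01 in animal 20 and 7.30 in animal 39, with all other animals between 4.81 and 6.22. MmugDNA.15137.1.S1_at gave 6.0, 5.07 and 6.86 in these animals, but a control of cohort 7b (5.61) and a drinker of cohort 7a (5.55) lay above animal 20. MmugDNA.33340.1.S1_at, the dimmest, was under 3.5 in 10 arrays and gave 4.00, 4.00 and 2.78 in the same animals, the last being its lowest value of all 43. Over deviations from the group means, its r with the brightest MYH11 probeset was -0.12, against 0.92 and 0.86 for the other 2 probesets. It is given with each test, but it did not follow the rest of MYH11.

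Within groups, MYH11 and MYL9 moved almost in step. After the mean of each of the 7 groups was taken off, Pearson's r between them was 0.96 over the 43 animals (Spearman's rho 0.84). Without animals 5, 20 and 39 it was 0.87, and within cohorts it was 0.98 for cohort 4, 0.97 for cohort 5, 0.71 for cohort 7a and 0.99 for cohort 7b. The points share arrays and normalization, and since co-variation chose the genes, no p is given. CNN1 was different. Its r was 0.71 with MYH11 and 0.72 with MYL9 over all animals, but 0.23 and 0.10 without the 3 high animals. Cohorts differed in this. Without their high animals, the r of CNN1 with MYH11 and MYL9 was 0.68 and 0.56 in cohort 4 and 0.46 and 0.55 in cohort 7b, but -0.17 and -0.24 in cohort 5. In cohort 7a, which had no high animal, it was -0.10 and -0.30.

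**Figure D2:**
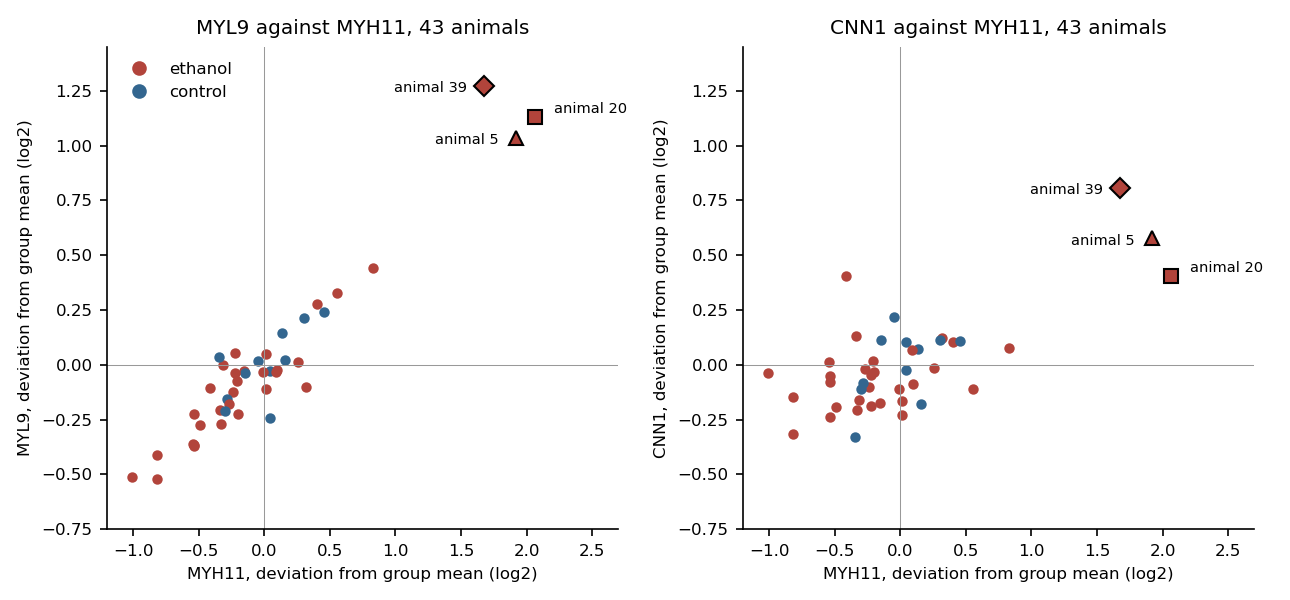
MYL9 (left) and CNN1 (right) against MYH11, each as the deviation of an animal from the mean of its cohort and treatment group (log2), drinkers in red and controls in blue. MYL9 follows MYH11 along the whole range (r = 0.96, and 0.87 without the 3 marked animals), whereas CNN1 does so less closely (r = 0.71, and 0.23 without animals 5, 20 and 39).

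No treatment difference of these genes passed the test. The study's methods describe a limma comparison of all drinkers with all controls, and the same contrast was run here, but on values with no batch adjustment and with another probeset filter and threshold. In it MYH11 was 0.40 higher in drinkers on the log2 scale (SE 0.24, 95% interval -0.09 to 0.89, limma adjusted p = 0.256). Its mean was 7.62 ± 0.80 (SD, n = 32) in drinkers and 7.21 ± 0.37 (n = 11) in controls. MYL9 was 0.23 higher (SE 0.14, interval -0.05 to 0.51, limma adjusted p = 0.252), with means of 7.37 ± 0.45 and 7.14 ± 0.22. CNN1 differed by 0.01 (SE 0.09, interval -0.18 to 0.20, limma adjusted p = 0.948), with means of 5.39 ± 0.28 and 5.38 ± 0.27. The other MYH11 probesets gave 0.32, 0.13 and 0.03, with adjusted p from 0.304 to 0.909. None of the 6 probesets passed an adjusted p of 0.05, where 16.2% of all tested probesets did and where the median difference of all tested probesets was -0.04. At an unadjusted p of 0.05, again 0 of the 6 and 31.3% of all passed.

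With cohort as a block the difference was 0.21 for MYH11, 0.20 for MYL9 and -0.01 for CNN1. Without animals 5, 20 and 39 it was 0.20 for MYH11, 0.11 for MYL9 and -0.05 for CNN1. These animals were picked as the drinkers with the most MYH11 and no control was left out, so a lower MYH11 difference was fixed by that choice, and one of MYL9, which moves with it, nearly so. The values describe how much of the difference the 3 animals carried. With both changes together MYH11 stood at 0.01, MYL9 at 0.07 and CNN1 at -0.07.

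Within cohorts, where drinkers and controls shared an extraction kit, the MYH11 level of drinkers exceeded that of controls by 0.14 in cohort 5 (SE 0.37), while cohort 7a gave 0.31 (SE 0.40) and cohort 7b gave 0.20 (SE 0.55). For MYL9 the same differences were 0.18 (SE 0.22), 0.24 (SE 0.24) and 0.15 (SE 0.33). CNN1 differed by 0.05, -0.02 and -0.11 (SE from 0.13 to 0.19). These SEs rest on a spread that all 7 groups share, the high drinkers included. None of the 6 probesets passed in any of these cohorts by limma's adjusted p, with 0, 30.9% and 40.1% of all tested probesets called in cohorts 5, 7a and 7b and 3.03% passing unadjusted in cohort 5. The lowest adjusted p of a member was 0.126, of MmugDNA.33340.1.S1_at in cohort 7b, which was 0.43 lower in drinkers. Without animal 42 this became 0.61 lower and passed (limma adjusted p = 0.020), the only pass of a member in a treatment comparison when single animals were left out. Without the high animals the MYH11 difference turned to -0.15 in cohort 5 and to -0.22 in cohort 7b, that of MYL9 to 0.02 and -0.16, and that of CNN1 to -0.01 and -0.31 (limma adjusted p = 0.053 in cohort 7b), again with only high drinkers left out.

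The treatment difference in cohort 7a minus that in cohort 5 was 0.17 for MYH11 (SE 0.55), 0.06 for MYL9 (SE 0.33) and -0.07 for CNN1 (SE 0.19), with 0 of the 6 probesets called against 14.5% of all. Drinkers of cohort 5 had less MYH11 than those of cohort 4 by 0.44 (SE 0.30), with 0 of the 6 probesets and 0 of all tested probesets called by limma (3.76% of all passed unadjusted). MYH11 was 0.41 higher in drinkers of cohort 7b than in those of cohort 7a (SE 0.37), with 0 of the 6 called against 11.9% of all, and the difference was -0.01 without animal 39.

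**Figure D3:**
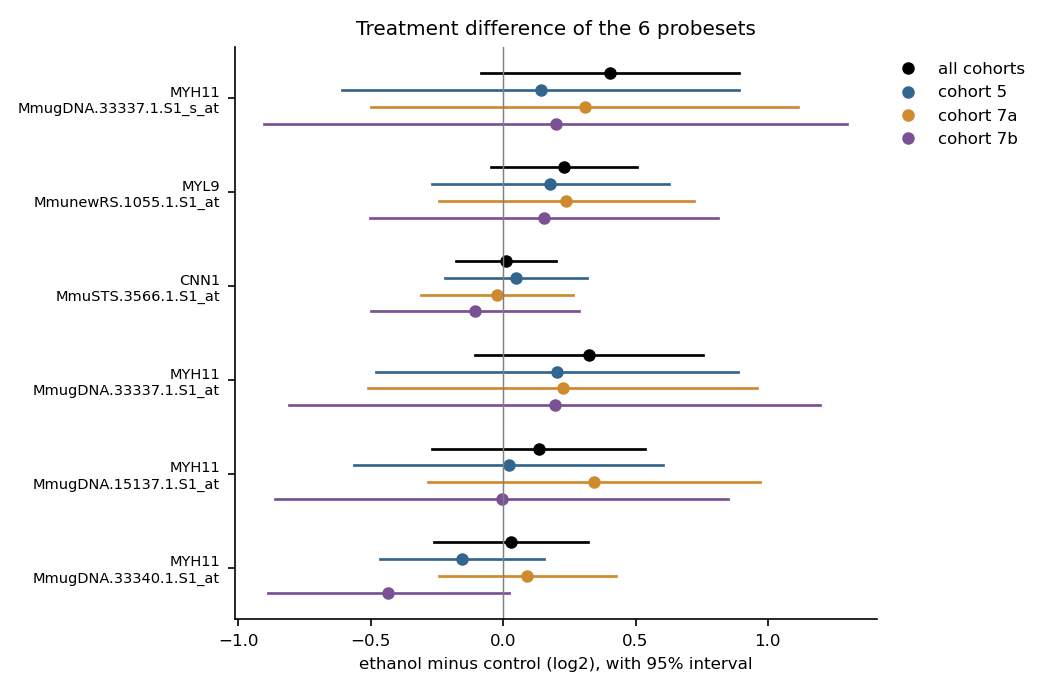
Difference of ethanol-drinking animals from controls (log2, x axis) for the 6 probesets over all cohorts and within cohorts 5, 7a and 7b. Points are limma estimates and lines are their 95% intervals, all 24 of which include 0, from 0.40 for MYH11 over all cohorts to -0.43 for MmugDNA.33340.1.S1_at in cohort 7b.

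Several of the genes most like these 3 are themselves known from muscle. Over 13702 other genes, the 12 with the highest mean r (deviations from group means) with the representative probesets of MYH11, MYL9 and CNN1 were ACTG2 (0.88), TAGLN (0.86), TPM2 (0.85), CPED1 (0.85), NIBAN1 (0.81), RBPMS2 (0.80), S100A4 (0.80), CASQ2 (0.79), LOC710096 (0.78), CRIP1 (0.77), FILIP1L (0.76) and SYNPO2 (0.73). ACTG2 is the actin of visceral smooth muscle, TAGLN (transgelin) an actin-binding protein of smooth muscle, TPM2 a tropomyosin, CASQ2 a calcium store protein of muscle, SYNPO2 an actin-bundling protein and RBPMS2 an RNA-binding protein of smooth muscle. LOC710096 is annotated as a pseudogene, so what its probeset measures is uncertain. Each gene was represented by its most alike probeset, which for 9 of the 12 was also its brightest. For the other 3 the brightest had a mean r of 0.84 (ACTG2), 0.04 (TPM2) and 0.30 (CRIP1), so that the probesets of TPM2 and CRIP1 disagreed.

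By these probesets all 12 were highest of their group in animals 5, 20 and 39, which the choice by r largely fixed, since these animals weigh most in it. The most alike probeset of ACTG2, a dim one, was 9.60-fold above the median of the other drinkers in animal 5, 6.69-fold in animal 20 and 13.3-fold in animal 39. The brightest ACTG2 probeset gave 2.36-fold, 1.63-fold and 4.66-fold. TAGLN was 2.77-fold, 3.21-fold and 4.25-fold above, and TPM2 3.42-fold, 2.53-fold and 3.5-fold, whereas the brightest TPM2 probeset gave 0.98-fold, 0.90-fold and 1.02-fold. Without these animals the mean r of the 12 genes fell to between 0.27 for FILIP1L and 0.59 for ACTG2, and 8 of the 12 were still among the 12 most alike. None of the 12 passed the test between all drinkers and all controls (TAGLN 0.23, limma adjusted p = 0.423). Within cohorts only S100A4 passed, 0.78 lower in drinkers of cohort 7b (limma adjusted p = 0.036), where 40.1% of all tested probesets were called.

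**Figure D4:**
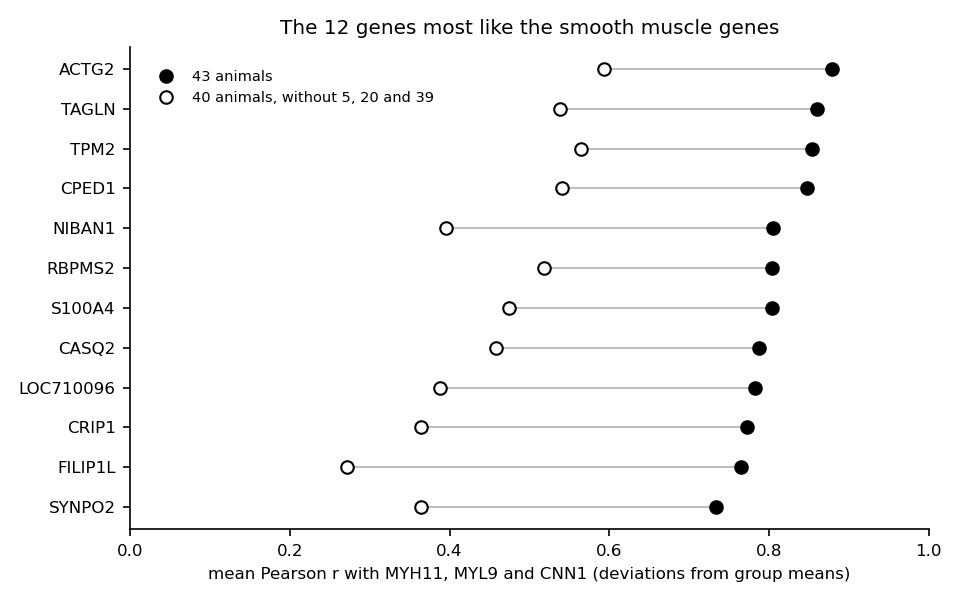
The 12 genes most like the smooth muscle genes, by the mean Pearson r (x axis) with MYH11, MYL9 and CNN1 over deviations from the group means, in all 43 animals (filled) and without animals 5, 20 and 39 (open). ACTG2 stays highest, at 0.88 and 0.59, and every gene loses part of its r.

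The 3 animals also had high levels of the wider contractile apparatus, while their mean levels of the endothelial and pericyte lists lay within the range of the other drinkers of their cohorts. A list of 25 measured genes of that apparatus, without the 3 members, had a mean level of 7.90 in animal 5, 7.92 in animal 20 and 7.99 in animal 39, while all other drinkers lay between 7.54 and 7.78 and the controls between 7.57 and 7.75. Animal 5 was the highest of its 11 drinkers for 11 of the 25 genes, animal 20 the highest of 8 for 15, and animal 39 the highest of 5 for 13. Over all 13705 genes they were highest for 8.62%, 16.4% and 15.9%. These animals were picked by MYH11, and the list holds ACTG2, TAGLN, TPM2, CASQ2 and SYNPO2, which are among the 12 most alike genes. A high level of the list was therefore partly fixed by that choice. In the list, ACTG2 and TPM2 stand by their brightest probesets (mean r 0.84 and 0.04), not by their most alike. Mean r in this list and over all 13702 genes was taken from the brightest probeset of each gene. The list as a whole followed the members loosely, with a median mean r of 0.24 and a range from -0.21 to 0.86. Of the 25 genes, 8 had a mean r over 0.5 with the members, against 48 of 13702 genes in total. Without the high animals these counts were 2 of the 25 and 4 of the 13702.

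For 33 regulators of smooth muscle genes the levels of these animals were 8.27, 8.25 and 8.15, within the range of the other drinkers of their cohorts. No regulator had a mean r over 0.5. For 25 genes of vascular endothelium the levels of these animals were 6.93, 7.00 and 6.68, ranks 16, 12 and 40 of 43, and no endothelial gene had a mean r over 0.5 (CLDN5, a tight junction protein, 0.31). For 12 pericyte genes they were 6.64, 6.67 and 6.46, ranks 9, 4 and 40. Of these 12 genes, 1 had a mean r over 0.5 (MCAM, 0.60), a share of 8.33% beside 0.35% of all genes. By genes, animal 20 was the highest of its 8 drinkers for 5 of the 12 pericyte genes (41.7%), against 1 for animal 5 and 2 for animal 39, and the 3 animals were highest for 3, 3 and 6 of the 25 endothelial genes. Levels over all arrays ran from 6.38 to 6.70 for the pericyte list and from 6.53 to 7.21 for the endothelial list. For 17 genes of vascular fibroblasts and meninges, animal 39 stood second of 43 (7.36, with controls up to 7.42), and animals 5 and 20 were 13th and 19th. Of these 17 genes, 1 had a mean r over 0.5 (0.62), a share of 5.88%. Without the 3 animals no gene of the pericyte list or of this list had a mean r over 0.5. Red blood cell genes, of which 5 were measured, were at 5.12, 5.15 and 5.05, within the range of 4.86 to 5.39 of all arrays. Animal 39 was below the other drinkers of its cohort for these genes (5.09 to 5.16). Animal 20 also had the second highest level of 10 microglial genes (7.48) and the lowest level of 7 neuronal genes among its cohort's drinkers (9.94). The level of 7 astrocyte genes was the highest of the cohort's drinkers in animal 5 (11.21, others up to 11.19) and in animal 20 (11.27, others up to 11.24), and that of 4 oligodendrocyte genes was the lowest of all arrays in animal 39. The part of these other cell types in the excess was not tested. Signal from the 3′ over the 5′ end of actin, a gauge of RNA integrity on the array, was 4.38 in animal 5, 4.62 in animal 20 and 0.91 in animal 39, all within the range of the other drinkers of their cohorts.

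**Figure D5:**
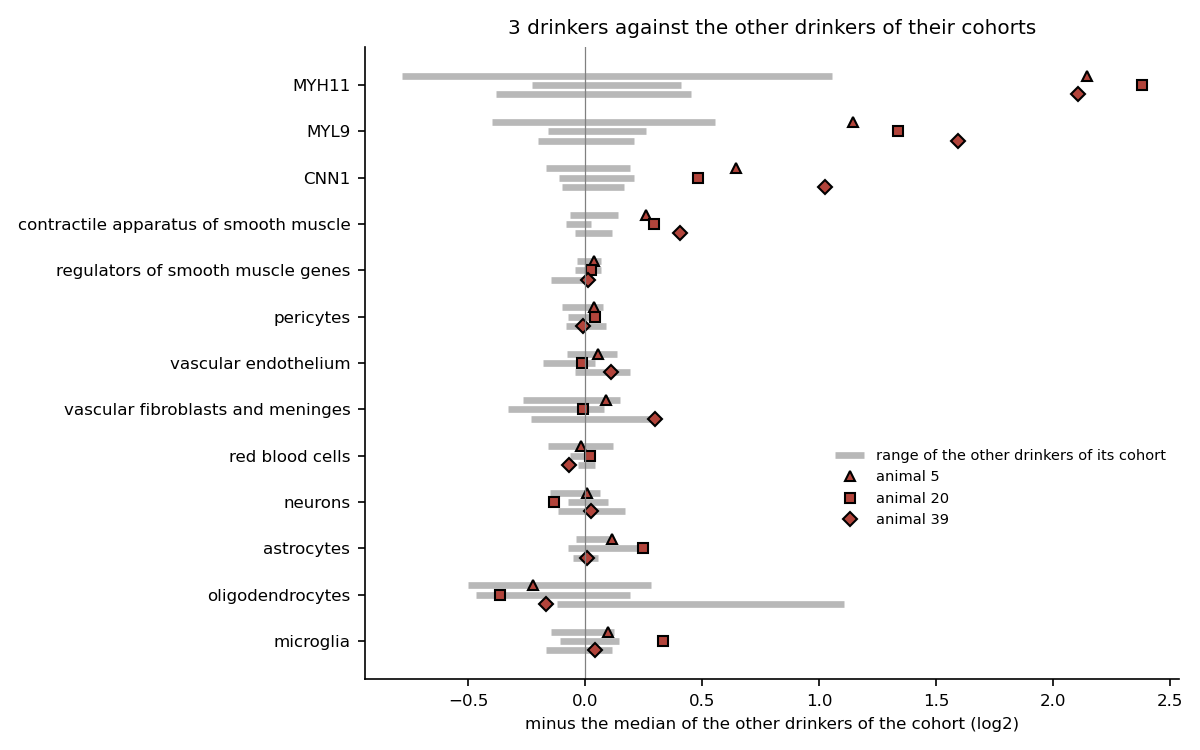
Animals 5, 20 and 39 against the other drinkers of their cohorts, as the difference from the median of those drinkers (log2, x axis), for MYH11, MYL9, CNN1 and the mean level of 10 gene lists, with the range of the other drinkers in grey. The 3 animals exceed that range for the smooth muscle genes and the contractile list, which their choice by MYH11 partly fixed. They do not exceed it for the regulators of smooth muscle genes or for the endothelial or pericyte lists. Animals 5 and 20 also exceed it for astrocytes, animal 20 for microglia and animal 39 narrowly for fibroblasts and meninges.

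Among the relatives of the 3 genes that other cells use, some did differ between drinkers and controls. Nonmuscle myosin MYH9 was 0.21 higher in drinkers (SE 0.06, limma adjusted p = 0.020) and the light chain MYL12A was 0.34 lower (SE 0.08, limma adjusted p = 0.004). MYH10, a nonmuscle myosin abundant in neurons, and MYL6, an essential light chain, did not pass (0.24, adjusted p = 0.391, and -0.07, adjusted p = 0.605). Within cohorts, however, MYH10 was 0.62 higher in drinkers of cohort 7a (limma adjusted p = 0.00067) and 1.12 higher in cohort 7b (limma adjusted p = 6.8e-06). In cohort 5 it differed by -0.15 and did not pass. MYL6 was 0.30 lower in cohort 7b (limma adjusted p = 0.013) and did not pass in cohorts 5 and 7a. MYH9 and MYL12A also passed in cohorts 7a and 7b. The mean r of these relatives with the members was 0.12 for MYH9, 0.24 for MYL12A, 0.11 for MYH10 and 0.49 for MYL6. Of the 25 measured contractile genes of 39 listed, 4 rose and 1 fell. Besides MYH9, these were the tropomyosin TPM1 (0.32), the actin crosslinker FLNA (0.29) and the kinase DMPK (0.27), with MYL12A the only fall. Their count of 5 (20%) stood beside 16.6% of all genes at 1 probeset each, and their median difference of 0.02 beside -0.03. ACTA2, MYLK, CNN2, CNN3 and MYL12B were not analysed here.

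Of 33 measured regulators of smooth muscle genes, 2 rose and 5 fell (21.2%, beside 16.6% of all genes), with a median of -0.06. SMAD3 (0.31) and MEF2D (0.25) rose, while SMAD2 fell by 0.27, KLF5 by 0.25 and SMAD4 by 0.24. SMAD proteins carry signals of the TGF-beta family. MYOCD (myocardin), the coactivator that drives the contractile genes, differed by 0.21 (limma adjusted p = 0.070) and had a mean r of 0.27 with the members. Pericyte genes gave 1 rise (ANPEP, a surface peptidase, 0.31) and 1 fall (VTN, -0.14) of 12, a share of 16.7%, close to that of all genes. Endothelial genes gave 0 rises and 2 falls of 25 (EMCN, -0.36, and ITM2A, -0.25), a share of 8%.

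Within cohorts, calls were made in 7a and 7b and not in 5, where none of the contractile genes and none of all tested probesets passed by limma. Of the 25 contractile genes, 6 rose and 2 fell in cohort 7a (32%, beside 30.2% of all genes), and 7 rose and 5 fell in cohort 7b (48%, beside 41.8%). Endothelial genes gave 3 falls of 25 in cohort 7a (12%) and 14 in cohort 7b (56%), and no rises. Among all tested probesets, 20.3% fell in cohort 7a and 26.1% in cohort 7b. At 1 probeset each, 2518 of 13705 genes fell in cohort 7a and 3650 in cohort 7b. In cohort 7a the 3′ minus 5′ value of actin was 1.26 ± 0.21 (SD, n = 8) in drinkers and 0.82 ± 0.06 (n = 4) in controls, a difference of 0.45 (two-sided exact permutation p = 0.004, adjusted p = 0.024 over 6 such tests). In cohort 7b the values were 1.10 ± 0.37 (n = 5) and 0.78 ± 0.04 (n = 2), and in cohort 5 they were 4.54 ± 0.20 (n = 8) and 4.50 ± 0.21 (n = 5), neither passing the exact permutation test. The same value for GAPDH was 0.18 higher in the drinkers of cohort 7a (adjusted p = 0.073 by the exact permutation test) and gave no call elsewhere. With cohort as a block and the actin value as a covariate, MYH11 differed by 0.28 (limma adjusted p = 0.515), MYL9 by 0.24 (0.317) and CNN1 by 0.04 (0.826) between drinkers and controls.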

How the data were processed

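Expression was measured with Affymetrix Rhesus Macaque arrays. The deposited values are log2 values that the authors computed with RMA (affy package) and quantile normalized over the 43 arrays, with no adjustment for processing batch. The software version and genome build are not given in the sources used here. Probesets were named from the platform's probe table, which gave 24956 probesets 1 symbol, 361 several and 27449 none, beside control probesets. Of the annotated probesets, those with values under 3.5 on 80% of the arrays or more were not tested, which left 24151. Of these, 336 with several symbols were tested but not named. limma 3.58.1 (R 4.3.3) was fitted to treatment over all arrays, and to the 7 cohort and treatment groups for contrasts within cohorts. p-values were adjusted by the Benjamini-Hochberg method over all tested probesets. Each gene outside the 3 members was represented by its brightest probeset, or, for likeness, by its most alike. Up to 3 genes per direction and list were named by size among those past an adjusted p of 0.05. The members and gene lists were chosen with earlier results of these data known. Each animal is 1 sample, and precision is limited by their number. The script's estimates were tested on simulated data. Alternatives were blocks for cohort and kit, other filters and normalizations, and leaving out animals.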

Additional observations from a re-analysis of the deposited data

Results flagged for a closer look

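In groups of 4 to 10 animals, a highest or lowest value was marked where its gap to the next, as a share of the group's range, passed Dixon's 95% critical value. Of 30 sets of values (6 probesets in 5 groups), 10 held a marked value. Chance marks about 1 in 20 independent groups, but these genes were chosen by the same values, and the probesets move together, so the count is a description and not a test.

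Animal 20 was marked among the drinkers of cohort 5 for MYH11 (9.605 for MmugDNA.33337.1.S1_s_at and 7.007 for MmugDNA.33337.1.S1_at) and for MYL9 (8.426). Animal 39 was marked among the drinkers of cohort 7b for MYL9 (8.851), for CNN1 (6.445) and for MYH11 (7.304 for MmugDNA.33337.1.S1_at and 6.865 for MmugDNA.15137.1.S1_at). It was not marked for the brightest MYH11 probeset, MmugDNA.33337.1.S1_s_at, by which it had been picked. Cohort 4, with 11 drinkers, was too large for this test. In cohort 7a, animal 29 was marked for MYL9 (7.599), animal 31 for CNN1 (5.814), and the control animal 27 for a low CNN1 value (5.107). Animal 29 also had the highest MYH11 value of cohort 7a (7.75), while animal 31 had the lowest among its drinkers (6.78).

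For none of the 6 probesets did the treatment difference of cohort 7a differ from that of cohort 5. Of 18 named genes of the contractile, regulator, pericyte and endothelial lists, 8 did differ by limma's test of the difference between those cohorts (log2, cohort 7a minus cohort 5). The values were -0.589 for MYL12A, 0.770 for MYH10, 0.568 for MEF2D, 0.433 for SMAD3, -0.382 for SMAD2, -0.556 for SMAD4, -0.433 for KLF5 and -0.584 for ITM2A, with adjusted p from 8.29e-05 to 0.031. The cause was not tested. Of all tested probesets, 14.5% differed in the same way. Most of the 18 genes had been named for passing limma's test between all drinkers and all controls, which took in cohort 7a. That choice favours genes with a difference in cohort 7a, where many probesets passed, over cohort 5, where none did. The share of 8 in 18 can therefore not be weighed against 14.5%.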

How the results depend on the processing

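In all alternatives that kept every animal, no member probeset passed an adjusted p of 0.05 in any comparison. The brightest MYH11 probeset and MYL9 had higher means in drinkers over all cohorts in every alternative run, while CNN1 and MmugDNA.33340.1.S1_at changed sign with several. The number of probesets called over all arrays (3901) was 8044 with cohort as a block, 6972 with kit as a block, 2339 without cohort 4, 7143 without cohort 4 and with the block, 7751 with normalization within kit groups and the block, and 7884 with the block and without animals 5, 20 and 39. Fitted on the compared cohorts alone, 1 probeset was called between treatments in cohort 5, 1 between drinkers of cohorts 5 and 4, and 652 between drinkers of cohorts 7b and 7a (2865 otherwise).

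Over all cohorts, CNN1 stood at -0.009703 with cohort as a block, with or without cohort 4, at -0.05312 without animals 5, 20 and 39 and at -0.07285 with both changes. MmugDNA.33340.1.S1_at stood at -0.1192 with the cohort block, with or without cohort 4, at -0.05453 with the kit block, -0.2791 with the block and the actin value, -0.1597 without cohort 4, -0.09209 with normalization within kit groups and the cohort block together, and -0.09753 with the block and without the 3 animals, and MmugDNA.15137.1.S1_at at -0.01221 without them. Leaving out those 3 animals, which was chosen after seeing the data and by MYH11 itself, also turned the treatment difference in cohort 5 to -0.1537 for MYH11 and -0.008733 for CNN1, that in cohort 7b to -0.2198 for MYH11 and -0.1637 for MYL9, and the drinkers of cohort 7b minus those of cohort 7a to -0.005815 for MYH11 and -0.009753 for MYL9.

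With each animal left out in turn, the calls over all arrays ran from 1719 (without control 37) to 5114, with 1748 without control 38, 2507 without control 27 and 2555 without control 28. CNN1 ran from -0.02628 to 0.05934 and MmugDNA.33340.1.S1_at from -0.03448 to 0.1011 over all cohorts. In cohort 5, MYH11 ran from -0.1537 to 0.2189 and CNN1 from -0.008733 to 0.1033. In cohort 7a CNN1 ran from -0.1343 to 0.01307. In cohort 7b MYH11 ran from -0.2198 to 0.5003, MYL9 from -0.1637 to 0.3676, CNN1 from -0.3092 to 0.00511 and MmugDNA.33340.1.S1_at from -0.6101 to -0.3169, with 0 to 1 member called there and 0 to 1 between drinkers of cohorts 7b and 7a, each 1 without animal 42. Between those drinkers MYH11 ran from -0.005815 to 0.6161 and MYL9 from -0.009753 to 0.4391. MYL9 ran from -0.01865 to 0.2232 for cohort 7a minus cohort 5. The actin value of cohort 5 ran from -0.02246 to 0.1042, and the GAPDH value of cohort 7a from 0.1424 to 0.2079, with exact permutation p up to 0.073, against 0.024 unadjusted with all animals. The cause of these changes was not tested. No paired analysis was possible because each animal has a number of its own and the groups share none. With 2 controls in cohort 7b and 4 in cohort 7a, intervals within cohorts were wide. They also rest on a spread that all 7 groups share, so the high animals of other cohorts enter those of cohort 7a. Fitted on cohort 7a alone, the treatment difference had a limma adjusted p of 0.205 for MYH11, 0.098 for MYL9 and 0.897 for CNN1. In the shared fit these were 0.595, 0.475 and 0.916.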

Other observations

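Of the cell type lists not described above, and between all drinkers and all controls by limma's adjusted p, genes of vascular fibroblasts and meninges gave 0 calls of 17, astrocyte genes 0 of 7 and oligodendrocyte genes 0 of 4. Over all genes at 1 probeset each, 16.6% were called in this comparison, beside which these counts have to be read. Red blood cell genes gave 1 fall of 5 (HBB, -0.23). Neuronal genes gave 1 rise of 7 (GAD2, the enzyme that makes GABA, 1.12) and microglial genes 2 falls of 10 (P2RY12, -0.49, and AIF1, -0.42). Of the listed markers of the labelled tissue, 7 of 13 neuronal, 7 of 9 astrocyte, 4 of 10 oligodendrocyte and 10 of 10 microglial genes had a probeset that passed the filter on low values.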
